A study of Homo sapiens with 6 samples.

Results

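The genes described are 8 components of TRAIL and death receptor signalling, TNFSF10, TNFRSF10A, TNFRSF10B, TNFRSF10D, FAS, FADD, CASP8 and CFLAR, taken by symbol from the 27328 loci of the deposited expression table. They were chosen for their known function with the values of these libraries already known, so their differences between groups and between replicate numbers are given as a description and support nothing further. All 8 were found, and all 8 passed the filter on low values that left 12064 loci for testing. The libraries are of SACC-83, a human line established from an adenoid cystic carcinoma of salivary gland, with 3 libraries of cells overexpressing circMYBL1 (OE) and 3 of cells with the vector control (Vec), which the labels give as genotype WT. The genotype labels of the OE libraries run on as circMYBL1, circMYBL2 and circMYBL3 with the replicate number, while the series describes circMYBL1 only. The labels do not give the type of vector, or whether cells were a clone or a pool. No label ties the libraries of a group to cultures of their own, and the spread that p-values measure may therefore be technical. The study looked for genes that the circle acts on. MYBL1, the host gene of the circle, read 359, 44.0 and 2025 FPKM in OE libraries 1, 2 and 3, against 9.04, 7.15 and 10.3 FPKM in Vec libraries 1, 2 and 3. That value sums all reads assigned to the gene and does not separate the circle from linear MYBL1.

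TRAIL, the protein of TNFSF10, is a ligand of the tumor necrosis factor family that can trigger apoptosis in many tumor cells. It binds the death receptors DR4 (TNFRSF10A) and DR5 (TNFRSF10B), and also decoy receptors such as DcR2 (TNFRSF10D), whose death domain is truncated. FAS is the related receptor for FAS ligand. Bound death receptors recruit the adaptor FADD, which gathers the initiator caspase CASP8, and c-FLIP, the protein of CFLAR, is a caspase-like protein that competes with CASP8 in this complex. TNFSF10 (ENSG00000121858) lies at chr3:172505508-172523507 on the minus strand in GRCh38. FAS (ENSG00000026103) lies at chr10:88990582-89015785 and FADD (ENSG00000168040) at chr11:70203163-70207390, both on the plus strand. CASP8 (ENSG00000064012, chr2:201233443-201287711) and CFLAR (ENSG00000003402, chr2:201116104-201176687) lie near each other on the plus strand of chromosome 2. TNFSF10 is known as an interferon-stimulated gene.

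Start-site sequences were looked up for 5 of the 8 genes, TNFSF10, FAS, FADD, CASP8 and CFLAR (RefSeq, build GRCh38.p14). Each window ran from 250 bases before the start to 50 bases after it. Windows of TNFRSF10A, TNFRSF10B and TNFRSF10D were not searched, so nothing is known here of their motifs. The window of TNFSF10, chr3:172523381-172523680 on the minus strand, is shown because this gene varied most among the 8. The first listed window of CASP8, chr2:201233213-201233512 on the plus strand, is shown too. Of these 5 genes, CASP8 was the other with a match to the same interferon motif. The first listed window of FAS, chr10:88990548-88990847 on the plus strand, is shown because FAS varied with the libraries as TNFSF10 did and had no such match. Capitals mark matches to the core of the interferon-stimulated response element (GAAA, any 2 bases, then GAAA), to the interferon-gamma activated site GAS (TTCNNNGAA) and to the TATA box (TATAAA), each searched on both strands. Sequences run 5′ to 3′ along the gene's strand.
TNFSF10: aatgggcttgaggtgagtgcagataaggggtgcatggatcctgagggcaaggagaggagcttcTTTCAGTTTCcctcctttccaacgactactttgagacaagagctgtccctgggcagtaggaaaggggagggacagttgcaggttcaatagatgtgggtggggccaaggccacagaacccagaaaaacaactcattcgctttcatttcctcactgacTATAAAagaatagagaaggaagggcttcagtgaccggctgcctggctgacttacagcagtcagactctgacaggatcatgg
CASP8: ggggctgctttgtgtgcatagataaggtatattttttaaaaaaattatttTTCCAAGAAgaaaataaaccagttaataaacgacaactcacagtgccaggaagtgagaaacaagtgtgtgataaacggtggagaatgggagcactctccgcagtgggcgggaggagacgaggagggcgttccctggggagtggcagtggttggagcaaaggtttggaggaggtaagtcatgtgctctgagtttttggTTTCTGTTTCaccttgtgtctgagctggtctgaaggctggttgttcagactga
FAS: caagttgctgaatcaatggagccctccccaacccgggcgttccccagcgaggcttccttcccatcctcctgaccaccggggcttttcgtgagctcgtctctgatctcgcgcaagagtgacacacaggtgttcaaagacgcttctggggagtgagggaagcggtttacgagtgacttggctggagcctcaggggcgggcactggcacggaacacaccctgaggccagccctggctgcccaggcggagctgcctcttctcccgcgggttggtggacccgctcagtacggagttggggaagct

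The TNFSF10 window held the response element core on the opposite strand, as TTTCAGTTTC starting 187 bases before the start site, and a TATA box starting 31 bases before it. CASP8 held a core as TTTCTGTTTC starting 3 bases before the start site shown, and a GAS match as TTCCAAGAA starting 200 bases before it. No match to the core was found in the 3 windows of FAS, the 4 of CFLAR or the 1 of FADD. Of 35116 windows of the same length, 3.57% held the core, 7.66% the GAS motif and 11.5% the TATA box. The GC box (GGGCGG), held by 45.0% of all windows, was found in 3 of 3 FAS windows, 2 of 4 CFLAR windows, 1 of 3 CASP8 windows (the one shown) and the 1 FADD window, and not in that of TNFSF10. A match is a description of the letters and not a site of binding.

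Levels are FPKM as deposited, that is fragments scaled to gene length and to all mapped fragments. The length used for each gene is not known, so comparisons of level between genes depend on lengths that could not be checked. The summed FPKM of a library lay between 371776 and 408826, and the read depth is unknown. Of 8 epithelial markers, 7 passed the filter (EPCAM, CDH1, KRT8, KRT18, KRT7, KRT5 and KRT14), and the summed level of all 8 with KRT19 was 2169 to 2686 FPKM in OE libraries and 2061 to 2272 FPKM in Vec libraries. Of the salivary and adenoid cystic carcinoma markers, KIT, AQP5 and AMY1A were listed at 0 in every library, and MYB read 0.688 to 1.21 FPKM in OE libraries and 0.705 to 1.20 FPKM in Vec libraries. TP63, a basal and myoepithelial marker of the same list, read 13.0, 25.1 and 15.3 FPKM in OE libraries 1, 2 and 3, against 11.7, 33.7 and 13.9 FPKM in Vec libraries 1, 2 and 3, and SOX10 read up to 0.379 FPKM in OE and 0.814 FPKM in Vec, each highest in library 2. CNN1 reached at most 0.254 FPKM. PTPRC, the pan-leukocyte marker, was listed at 0 throughout. Libraries varied more with replicate number than with group, and both libraries numbered 2 stood apart from the other 4. Each library deviated from its group mean most like the library of the same number in the other group (r = 0.725, 0.881 and 0.529 across genes for numbers 1, 2 and 3). A fit with the replicate number as a block was therefore added to that on groups alone.

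TNFSF10, the TRAIL gene, varied over a 29.0-fold range, and this range followed the replicate number and not the group. It read 5.60, 69.2 and 8.20 FPKM in OE libraries 1, 2 and 3, against 3.63, 105.2 and 9.38 FPKM in Vec libraries 1, 2 and 3. Both libraries numbered 2 were high, the groups overlapped, and libraries numbered 1 were the lowest of each group. On the log2(FPKM + 1) scale, library 2 lay above the mean of libraries 1 and 3 by 3.17 in OE and by 3.94 in Vec, against a median of 0.08 in OE and 0.06 in Vec over all tested genes. When genes whose shifts had the same sign in both groups were ranked by the smaller of the pair, 0.0332% of tested genes ranked above TNFSF10. A range of 10-fold or more over the 6 libraries was reached by 1 of the 8 genes and by 1.33% of all tested genes. In bulk libraries, fewer cells of a type and less RNA per cell cannot be told apart.

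Between the groups, TNFSF10 averaged 27.7 ± 36.0 FPKM in OE libraries and 39.4 ± 57.1 FPKM in Vec libraries (SD, n = 3 each), a log2 fold change of -0.09 (limma, SE 1.31; SE 0.17 with the block). Within pairs it was higher in OE in pair 1 (0.51 on the log2 scale) and lower in pairs 2 and 3 (-0.60 and -0.17). The direction rests on single libraries: the log2 fold change was 1.23 without Vec library 2, 0.56 without OE library 1, 0.32 without OE library 3 and -1.14 without OE library 2. Leaving out both libraries numbered 2 gave 0.17.

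**Figure D1:**
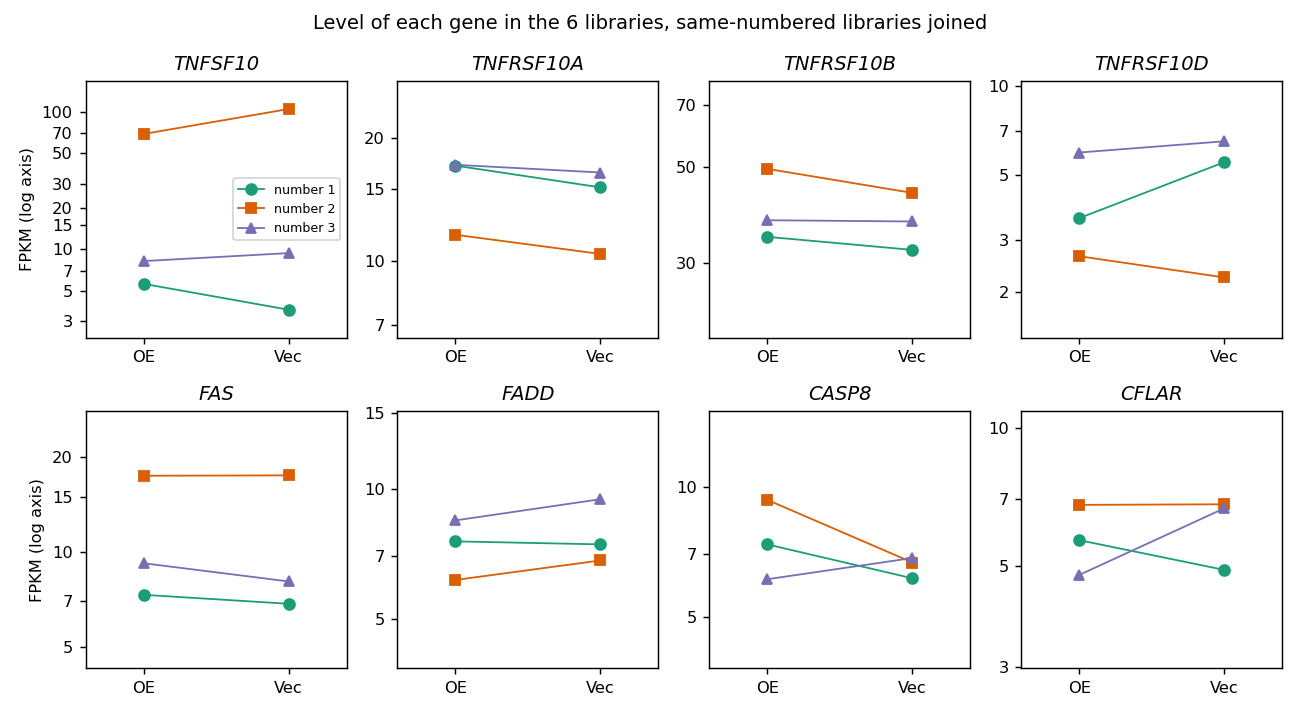
FPKM of each gene on a log axis, with the 3 OE libraries left and the 3 Vec libraries right in each panel; colour and shape mark the replicate number, and lines join libraries of the same number. TNFSF10 and FAS are high in both libraries numbered 2 (69.2 and 105.2 FPKM, and 17.5 and 17.5 FPKM), while TNFRSF10A and TNFRSF10D are low there.

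Of the TRAIL receptors, DR5 was the most abundant, and the DR5 transcript was high in libraries numbered 2 where DR4 and DcR2 were low. TNFRSF10A (ENSG00000104689, chr8:23190452-23225126), TNFRSF10B (ENSG00000120889, chr8:23020133-23069179) and TNFRSF10D (ENSG00000173530, chr8:23135588-23164030) are neighbours on the minus strand of chromosome 8. TNFRSF10B, which encodes DR5, read 34.5, 49.6 and 37.7 FPKM in OE libraries 1, 2 and 3, against 32.2, 43.6 and 37.4 FPKM in Vec libraries 1, 2 and 3. Library 2 was the highest of each group, and the groups overlapped. TNFRSF10A, which encodes DR4, read 17.1, 11.6 and 17.2 FPKM in OE libraries 1, 2 and 3, against 15.1, 10.4 and 16.5 FPKM in Vec libraries 1, 2 and 3. Here library 2 was the lowest of each group. TNFRSF10D, which encodes the decoy DcR2, read 3.56, 2.64 and 5.94 FPKM in OE libraries 1, 2 and 3, against 5.51, 2.24 and 6.48 FPKM in Vec libraries 1, 2 and 3. It was likewise lowest in library 2 of each group and highest in library 3. TNFRSF10C, the gene of the decoy receptor DcR1, was at or near 0 (0 FPKM in 3 of 3 OE libraries and up to 0.0793 FPKM in Vec libraries).

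On the log2 scale, library 2 differed from the mean of libraries 1 and 3 by 0.45 in OE and 0.32 in Vec for TNFRSF10B, by -0.53 in OE and -0.56 in Vec for TNFRSF10A, and by -0.63 in OE and -1.11 in Vec for TNFRSF10D. These directions were the same under TPM, trimmed-mean factors and quantile scaling, with TNFRSF10B down to 0.27 in OE and 0.16 in Vec under trimmed-mean factors. TPM moved the median of all tested genes to 0.15 in OE and 0.14 in Vec, and trimmed-mean factors moved it to -0.08 in OE and -0.09 in Vec. Between the groups, TNFRSF10B and TNFRSF10A were higher in OE in 3 of 3 pairs, by 0.01 to 0.18 for TNFRSF10B and by 0.06 to 0.17 for TNFRSF10A on the log2 scale. Of all tested genes, 16.5% were higher in OE in 3 of 3 pairs and 11.9% lower in 3 of 3 pairs; none of the other 6 genes had 1 direction in all pairs. The mean difference was 0.10 (limma, SE 0.19; SE 0.09 with the block) for TNFRSF10B and 0.12 (SE 0.23; SE 0.09 with the block) for TNFRSF10A, and it was -0.05 for TNFRSF10B without OE library 2, -0.01 without Vec library 1 and -0.06 for TNFRSF10A without Vec library 2. TNFRSF10D gave -0.15 (SE 0.37; SE 0.14 with the block), and 0.03 to 0.08 without OE library 2, without Vec library 3 or without both libraries numbered 1. It was -0.52 without Vec library 2 and -0.41 without OE library 3.

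FAS, the FAS ligand receptor, followed TNFSF10 across libraries with a smaller range. It read 7.31, 17.5 and 9.21 FPKM in OE libraries 1, 2 and 3, against 6.84, 17.5 and 8.06 FPKM in Vec libraries 1, 2 and 3. The order of the libraries was the same in both groups, and library 2 lay above the mean of libraries 1 and 3 by 1.01 in OE and 1.14 in Vec on the log2 scale. By the same ranking, 4.76% of tested genes lay above FAS. The group difference was 0.08 (limma, SE 0.41; SE 0.10 with the block), and it was -0.25 without OE library 2, -0.16 without Vec library 1, -0.05 without Vec library 3 and 0.46 without Vec library 2. FAS shares 380 exon bases, 8.9% of its exon length, with ACTA2 on the other strand, and whether counting used strand is not stated. ACTA2 read 3.84, 8.02 and 2.51 FPKM in OE libraries 1, 2 and 3 and 1.39, 7.24 and 2.82 FPKM in Vec libraries 1, 2 and 3, so it was high in the same libraries; its part in the FAS values was not tested.

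**Figure D2:**
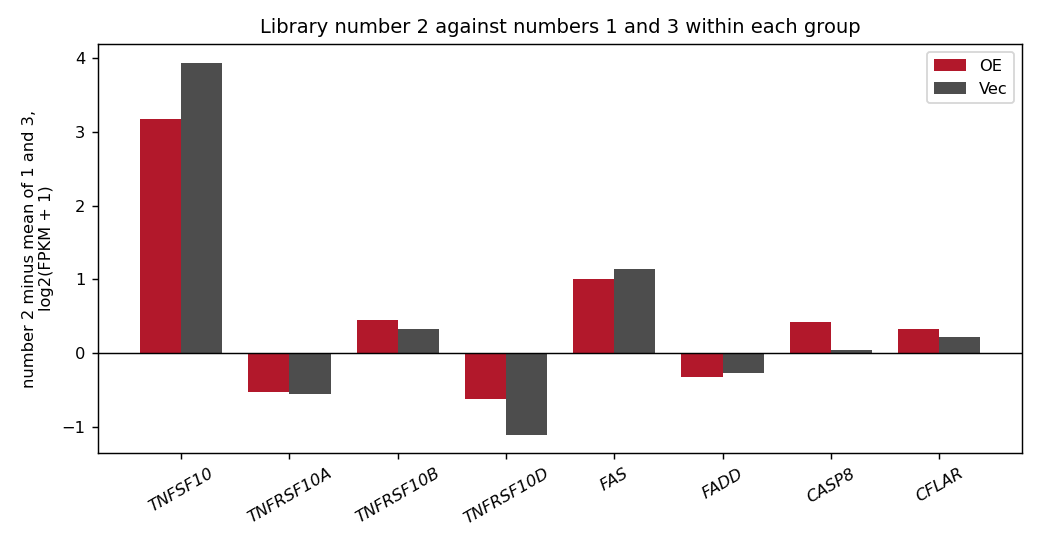
Difference between library 2 and the mean of libraries 1 and 3 on the log2(FPKM + 1) scale, within OE (red, left bar) and within Vec (grey, right bar), 1 value per group and gene. TNFSF10 (3.17 and 3.94) and FAS (1.01 and 1.14) lie above 0 in both groups, and TNFRSF10A (-0.53 and -0.56) and TNFRSF10D (-0.63 and -1.11) below 0.

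The adaptor, the caspase and its inhibitor lay close together in level and varied by at most 1.54-fold over the 6 libraries. FADD read 7.56, 6.15 and 8.45 FPKM in OE libraries 1, 2 and 3, against 7.44, 6.82 and 9.47 FPKM in Vec libraries 1, 2 and 3, lowest in library 2 and highest in library 3 of each group. CASP8 read 7.36, 9.31 and 6.12 FPKM in OE libraries 1, 2 and 3, against 6.15, 6.68 and 6.85 FPKM in Vec libraries 1, 2 and 3. The highest CASP8 value was that of OE library 2, the lowest that of OE library 3, and the Vec libraries lay between. CFLAR read 5.68, 6.79 and 4.77 FPKM in OE libraries 1, 2 and 3, against 4.89, 6.81 and 6.68 FPKM in Vec libraries 1, 2 and 3. Its groups overlapped, with library 2 the highest of each. The table gives 1 value per gene, so the long and short forms of c-FLIP and the splice forms of CASP8 are not separated. FADD shares 54.9% of its exon length with an antisense gene, AP000879.1, whose level was not used here. TNFRSF10A shares 7.6% of its exon length with TNFRSF10A-AS1 and 9.0% with AC100861.1, TNFRSF10B 1.3% with RHOBTB2 and CFLAR 6.6% with IMPDH1P10, 3.4% with CFLAR-AS1 and 2.0% with AC007283.1 on its own strand, while none was found for TNFSF10, TNFRSF10D and CASP8.

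The mean differences on the log2 scale were -0.09 for FADD (limma, SE 0.18; SE 0.10 with the block), 0.17 for CASP8 (SE 0.17; SE 0.12 with the block) and -0.08 for CFLAR (SE 0.19; SE 0.13 with the block). FADD gave 0.025 without OE library 2 and 0.04 without Vec library 3. CFLAR gave 0.03 without OE library 3 and 0.09 without both libraries numbered 3. CASP8 kept its sign under all 19 alternatives (0.03 to 0.32), but those on filter, trend and block left it at 0.17 and could not change it. Within pairs CASP8 was higher in OE in pairs 1 and 2 (0.23 and 0.42) and lower in pair 3 (-0.14). For CASP8, library 2 differed from the mean of libraries 1 and 3 by 0.42 in OE and 0.04 in Vec. Under trimmed-mean factors or quantile scaling the difference was -0.11 in Vec. Any link between motif matches and such shifts was not tested.

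**Figure D3:**
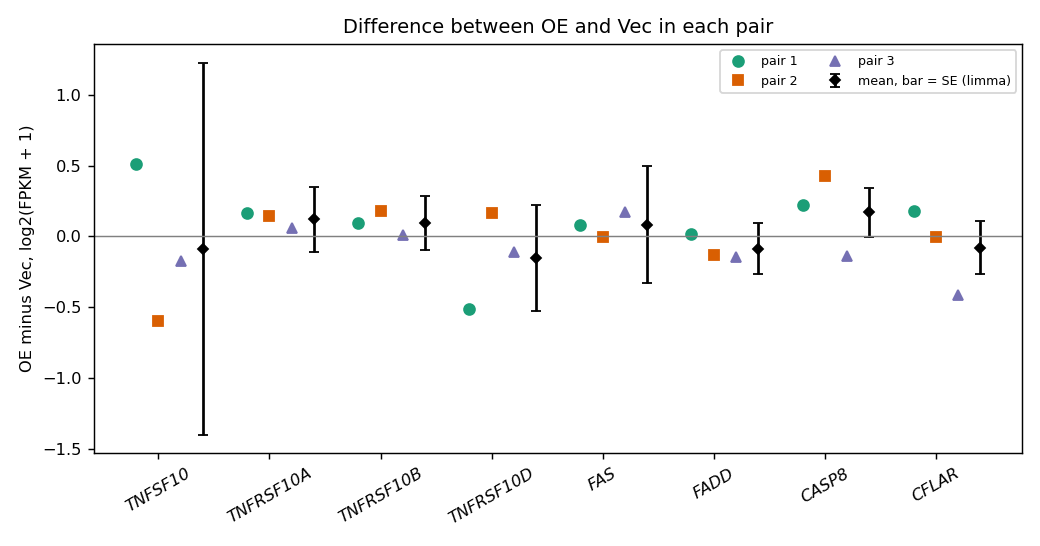
OE minus Vec on the log2(FPKM + 1) scale for each gene, with 1 point per pair of same-numbered libraries and a black diamond for the mean with its SE from limma. The points of TNFRSF10A (0.06 to 0.17) and TNFRSF10B (0.01 to 0.18) lie above 0, and those of the other genes fall on both sides.

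Across all tested genes, limma on log2(FPKM + 1) called 0 of 12064 genes between OE and Vec at an adjusted p under 0.05 (0%), with 65 at an unadjusted p under 0.05. With the replicate block it called 12 genes (0.0995%), with 868 at an unadjusted p under 0.05. The fit without the block counts differences between replicate numbers as spread, which can raise its p-values. Of the 8 genes, 0 were called in either fit, with adjusted p of 1.0 without the block and 0.791 to 0.927 with it, and 0 were called under any of the alternatives. Groups with no overlap in range were found for 0 of the 8 genes and for 3.34% of all tested genes. The median log2 fold change of the 8 was 0.003, against 0.03 over all tested genes, with 4 higher and 4 lower. That median was 0.11 without OE library 1 and -0.068 without Vec library 1, and it was -0.011 to -0.024 under TPM, trimmed-mean factors or quantile scaling. By replicate number, limma's F test with group as a further term called 46.5% of all tested genes and 5 of the 8, which were TNFSF10 (adjusted p = 5.95e-06), FAS (0.00014), TNFRSF10D (0.00227), TNFRSF10A (0.00508) and TNFRSF10B (0.0175). That 5 of 8 is close to the background share, and the genes were chosen with these values known, so nothing is read from it. Of the 5 calls, that of TNFRSF10B ended under trimmed-mean factors, without OE library 2 and without Vec library 2, that of TNFRSF10A ended without Vec library 2, and that of TNFRSF10D ended with no filter on low values.

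In the libraries numbered 1 and 3 of both groups, TNFRSF10B was the most abundant of the 8 and TNFRSF10A the next. In both libraries numbered 2, TNFSF10 came first, ahead of TNFRSF10B and FAS, and TNFRSF10A followed FAS. Leaving TNFSF10 aside, whose means of 27.7 FPKM in OE and 39.4 FPKM in Vec rest on the libraries numbered 2, group means ran from TNFRSF10B (40.6 ± 7.98 FPKM in OE and 37.7 ± 5.74 FPKM in Vec, SD, n = 3 each) through TNFRSF10A (15.3 ± 3.20 FPKM in OE and 14.0 ± 3.17 FPKM in Vec) to TNFRSF10D (4.05 ± 1.70 FPKM in OE and 4.74 ± 2.22 FPKM in Vec). FADD, CASP8 and CFLAR, at 5.75 to 7.60 FPKM in OE and 6.13 to 7.91 FPKM in Vec, overlapped with their neighbours in this order within each group, and FAS (11.3 ± 5.41 FPKM in OE and 10.8 ± 5.85 FPKM in Vec) overlapped with FADD, CASP8 and TNFRSF10A. The 3 OE and 3 Vec values of TNFRSF10B all lay above those of TNFRSF10A.

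Ratios of levels within a library set the decoy transcript against that of DR5 and the CFLAR transcript against that of CASP8. They are ratios of transcripts, with splice forms pooled, and do not give the balance of the proteins. Their size also depends on the gene lengths used for FPKM, which are not known. TNFRSF10D over TNFRSF10B was 0.103, 0.0533 and 0.158 in OE libraries 1, 2 and 3, against 0.171, 0.0514 and 0.173 in Vec libraries 1, 2 and 3, so the decoy transcript was less abundant than the DR5 transcript in every library. TNFRSF10A over TNFRSF10B was 0.496, 0.234 and 0.456 in OE libraries 1, 2 and 3, against 0.471, 0.239 and 0.440 in Vec libraries 1, 2 and 3. Both ratios were lowest in library 2, and their groups overlapped. CFLAR over CASP8 was 0.772, 0.730 and 0.780 in OE libraries 1, 2 and 3, against 0.795, 1.02 and 0.976 in Vec libraries 1, 2 and 3. Every OE value of this ratio was below every Vec value, with OE library 3 and Vec library 1 closest, and the means were 0.760 ± 0.0271 in OE and 0.930 ± 0.119 in Vec (SD, n = 3 each). Neither gene alone had groups that did not overlap, and of the other 3 ratios none did. The ratios are a description, with no test and no share over other gene pairs to read them against. FADD over CASP8 was 1.03, 0.660 and 1.38 in OE libraries 1, 2 and 3, against 1.21, 1.02 and 1.38 in Vec libraries 1, 2 and 3, and its groups overlapped.

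**Figure D4:**
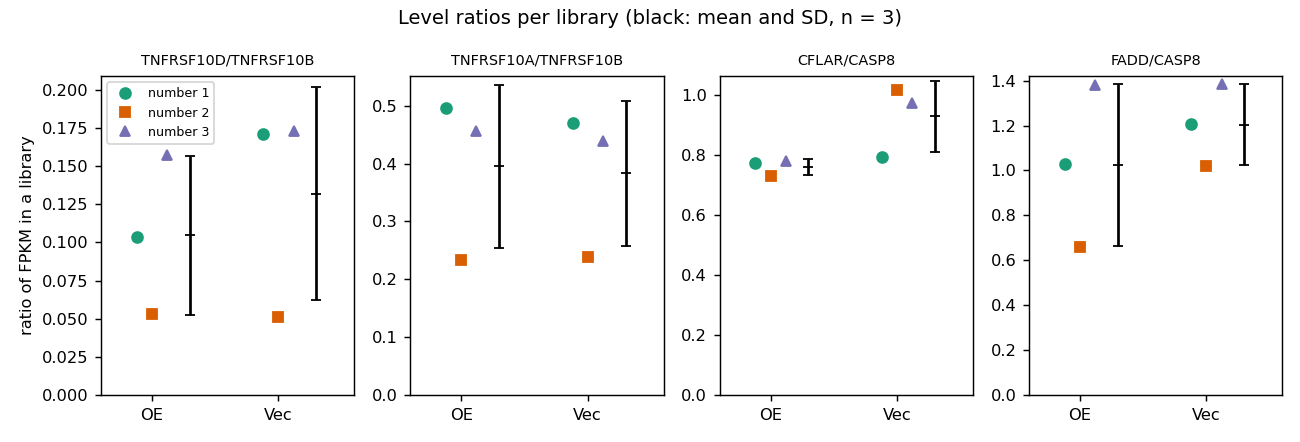
Ratio of FPKM values within each library, with OE left and Vec right in each panel, points marked by replicate number and the mean with SD (n = 3) in black. The CFLAR over CASP8 ratio is 0.730 to 0.780 in OE and 0.795 to 1.02 in Vec, and both receptor ratios are lowest in library 2.

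Other genes of the pathway were read from lists chosen by function with earlier results known, and 1 gene of these lists was called between OE and Vec, in the block fit only. Single values given for a gene in parentheses are log2 fold changes. Of 12 other death ligands and receptors, 5 passed the filter, 4 of them higher and 1 lower, with a median log2 fold change of 0.10 and 0 called in either fit. The TNF-like weak inducer of apoptosis receptor TNFRSF12A read 227 ± 106 FPKM in OE and 201 ± 101 FPKM in Vec (0.21), the death receptor DR3 (TNFRSF25) 8.26 ± 2.13 FPKM in OE and 6.74 ± 1.83 FPKM in Vec (0.26), and DR6 (TNFRSF21) gave a log2 fold change of -0.04. FAS ligand (FASLG) was at 0 in all libraries but OE library 2 (0.0464 FPKM). Among 18 tested adaptors and modifiers of the receptor complex, 13 were higher and 5 lower with a median of 0.07 and 0 called. RNF31 (0.31) and SHARPIN (0.29), subunits of the linear ubiquitin ligase, were the highest, and CASP8AP2 (-0.21) and the deubiquitinase OTULIN (-0.11) the lowest. PEA15, a death effector domain protein, was the most abundant, with 94.1 ± 30.5 FPKM in OE and 91.8 ± 35.7 FPKM in Vec. RIPK3, the kinase of necroptosis, was listed at 0 in every library.

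Of the caspases and downstream machinery, 16 of 17 rows were tested, with 11 higher, 5 lower, a median of 0.03 and 0 called. ENDOG, a mitochondrial nuclease, read 4.75, 4.90 and 2.87 FPKM in OE libraries 1, 2 and 3 and 2.58, 3.94 and 2.49 FPKM in Vec libraries 1, 2 and 3 (0.36). DIABLO, an antagonist of inhibitor-of-apoptosis proteins, read 32.5 ± 3.55 FPKM in OE and 28.4 ± 1.73 FPKM in Vec (0.19). ENDOG shares 39.2% of its exon length with SPOUT1 on the other strand, and DIABLO has a further identifier that was not tested. CASP10, the closest relative of CASP8, gave -0.13 and XIAP, a caspase inhibitor, gave -0.11. PARP1, a caspase substrate, was the most abundant at 113 ± 7.98 FPKM in OE and 111 ± 9.20 FPKM in Vec. The replicate number test called 2 of 5, 6 of 18 and 9 of 16 genes of these 3 lists, beside the 46.5% of all tested genes.

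Among 12 transcription regulators known to act on these genes, 1 was called in the block fit, beside 0.0995% of all tested genes, and 9 by replicate number, beside 46.5%. IRF9, which binds DNA within the interferon-induced complex ISGF3, read 3.97, 7.20 and 4.32 FPKM in OE libraries 1, 2 and 3, against 1.32, 2.13 and 1.47 FPKM in Vec libraries 1, 2 and 3. It rose in the block fit (log2 fold change 1.20, limma, SE 0.12, adjusted p = 0.00569) and was not called without the block (SE 0.24, adjusted p = 1.0), nor with the block and no filter on low values (adjusted p = 0.814). IRF9 shares 48.4% of its exon length, and RNF31 34.8%, with the readthrough gene AL136295.5, so these values are uncertain. The sum of IRF9 and AL136295.5 was 12.8 ± 1.79 FPKM in OE and 7.79 ± 1.51 FPKM in Vec. In the same pairs TNFSF10 differed by 0.51, -0.60 and -0.17. A link between IRF9 and TNFSF10 was not tested. SP1, a factor that binds GC boxes, gave a log2 fold change of -0.16, and ATF4, a stress-response factor, was the most abundant at 164 ± 41.7 FPKM in OE and 164 ± 16.6 FPKM in Vec.

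**Figure D5:**
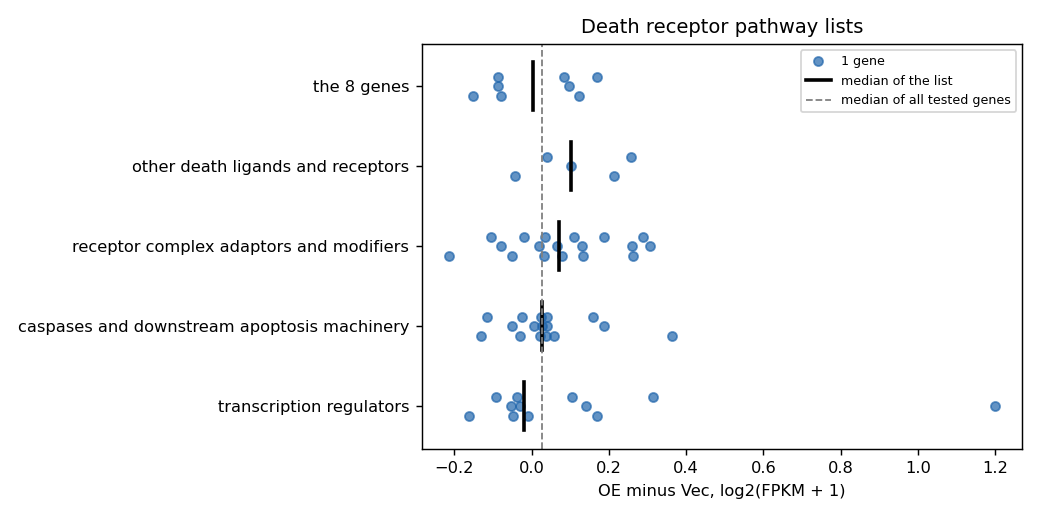
Log2 fold change (OE minus Vec, log2(FPKM + 1)) of each tested gene in the 8 genes and in 4 lists of the pathway; black bars mark each list's median and the dashed line the median of all tested genes (0.03). List medians lie between -0.02 and 0.10, and the point at 1.20 is IRF9.

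IRF1, an interferon-induced activator, was singled out after its values were seen, with 18.2, 49.0 and 18.4 FPKM in OE libraries 1, 2 and 3, against 15.8, 50.9 and 20.9 FPKM in Vec libraries 1, 2 and 3. It was thus high in the same libraries as TNFSF10 and FAS. Epithelial markers differed in the libraries numbered 2 too, in both directions. KRT5 reached 347 FPKM in OE library 2 and 412 FPKM in Vec library 2, against 94.9 to 142 FPKM elsewhere. KRT14 and CDH1 were likewise highest in library 2 of each group. KRT7 was lowest there, at 304 FPKM in OE and 234 FPKM in Vec, against 428 to 679 FPKM elsewhere. KRT8 and KRT18 were likewise lowest in library 2 of each group, and EPCAM in Vec only. Single markers of other cell types were also high in the libraries numbered 2, at low levels. The 6 endothelial markers summed to 0.394, 1.79 and 0.416 FPKM in OE libraries 1, 2 and 3, against 0.272, 1.96 and 0.645 FPKM in Vec libraries 1, 2 and 3, with KDR at 0 in every library. Most of the endothelial rise was PECAM1, at 0.985 FPKM in OE library 2 and 1.27 FPKM in Vec library 2, and TEK did not share it. The 6 fibroblast markers summed to 3.07, 8.90 and 4.22 FPKM in OE libraries 1, 2 and 3, against 4.71, 11.3 and 4.05 FPKM in Vec libraries 1, 2 and 3, with COL1A2 at 0 in every library. Nearly all of the fibroblast sum was COL1A1, with 2.95, 8.67 and 4.12 FPKM in OE libraries 1, 2 and 3, against 4.57, 11.1 and 4.02 FPKM in Vec libraries 1, 2 and 3, while DCN and LUM reached at most 0.117 FPKM. The 8 immune markers summed to 6.97 to 11.4 FPKM in OE and 7.51 to 8.39 FPKM in Vec, without the libraries numbered 2 standing apart. Nearly all of the immune sum was CD68, at 6.49 to 10.8 FPKM in OE and 7.19 to 8.04 FPKM in Vec. CD14 reached at most 0.653 FPKM, and PTPRC, CD3E, MS4A1 and LYZ were at 0. These values do not show that other cell types were present, and whether any had a part in the TNFSF10 and FAS values was not tested.

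The genes most like each of the 8 over the 6 libraries were taken by Pearson's r of log2(FPKM + 1), as a description only. Libraries numbered 2 stand apart, so r mostly measures a shared difference between these and the others. For TNFSF10 they were PLEKHH3 (r = 0.9991), NECTIN4 (0.9988) and PTAFR (0.9987), and 19.7% of tested genes had r over 0.9. For FAS they included TANK (0.9983) and ALG1L (0.998), with 19.1% over 0.9. TNFRSF10A was closest to UPP1 (0.9983), TNFRSF10B to SLC25A36 (0.9956) and TNFRSF10D to ARRDC3 (0.9991). FADD, CASP8 and CFLAR had fewer such genes, with 0.92%, 0.605% and 0.887% of tested genes over 0.9. CASP8 was closest to JAGN1 (0.9977) and CFLAR to SNX21 (0.996), while the closest named gene to FADD was ZNF92 (0.9879).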

How the data were processed

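The deposited table holds FPKM computed by the authors for 6 libraries; per the submitters' processing notes HISAT2 and GRCh38 were used, and no source used here gives the counting tool, the annotation or any version. Values are not whole-read steps, so no depth or counting error can be given. Groups came from the sample titles. A locus was kept where 3 or more of the 6 libraries reached an FPKM of 1. R 4.3.3 and its limma package, version 3.58.1, modelled log2(FPKM + 1) (empirical Bayes with a mean-variance trend, 2-sided, Benjamini-Hochberg adjustment over all kept loci, threshold 0.05). The code was also run on simulated data in which every gene had the same spread of noise. That run cannot check how the fit handles the differing spreads of real genes. Fold changes on the log2(FPKM + 1) scale understate changes of low genes. Replicate numbers were taken as pairs because same-numbered libraries correlated above 0.1 after removal of group means (0.725, 0.881 and 0.529), not from the labels; numbers 1 and 3 also correlated across (0.412 and 0.424). The genes and lists were chosen with earlier results of these data known. Named genes are the 8, list genes called in either fit, up to 2 per direction by size of change, the most abundant gene of a list and, for likeness, the 3 with the highest r, of which the closest are printed for some; some genes that this rule names are not reported here. Positions and exon overlaps are from GENCODE release 29, and promoter windows from RefSeq (GRCh38.p14). Alternatives were pseudocounts of 0.1 and 0.5, other filters, TPM, trimmed-mean factors, quantile scaling, no trend, the replicate block and leaving out libraries.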

Additional observations from a re-analysis of the deposited data

How the results depend on the processing

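None of the 8 genes was called between OE and Vec under any of 19 alternatives (18 for TNFRSF10D, which, like IRF9, drops out where the mean FPKM must reach 5). Over all genes the count called was 12 with the replicate block, 0 with the block and no filter on low values, 0 to 1 when 1 library was left out, and 10 when both libraries numbered 2 were left out, a setting chosen after seeing the data; the block changed the call of IRF9 and of none of the 8 genes. By replicate number 3389 genes were called without a filter on low values, and 3663 to 6174 when 1 library was left out. List medians when 1 library was left out were -0.061 to 0.15 for other ligands and receptors, 0.028 to 0.19 for adaptors, 0.0064 to 0.051 for caspases (-0.0021 under quantile scaling) and -0.027 to 0.11 for regulators. Without both libraries numbered 1, the ligand and receptor median was -0.017, and without both numbered 2 the regulator median was 0.083. Ratios when 1 library was left out were 0.751 to 0.776 in OE and 0.886 to 0.997 in Vec for CFLAR over CASP8, and 0.789 in OE with a pseudocount of 1 added to both levels. The cause of these changes was not tested.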
